A study of Mus musculus with 9 samples.

Results

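Small nuclear, nucleolar and 7S RNAs were read from the RNA sequencing of E14.5 mouse midbrain in an *Nkx2.9* mouse line. Members were chosen by annotation and by level: genes annotated in GRCm38 as snRNA, snoRNA or scaRNA, together with *Rn7s1*, *Rn7s2*, *Rn7sk*, *Rmrp* and *Rpph1*, whose mean normalized count over the 9 libraries was at least 5. This gave 135 members out of 51912 genes in the table, and out of 2948 genes of these classes at any level, of which 1123 had a read in at least 1 library. The members were 1 gene for 7SK, 2 for 7SL, 2 for the RNA of RNase P and RNase MRP, 48 of 1385 snRNA genes, 13 of 51 scaRNA genes and 69 of 1507 snoRNA genes. The members nearest the minimum were *Gm22728* with a mean of 5.06 and *Snord37* with 5.38, and the nearest genes below it were *Gm26230* with 4.93 and *Gm23136* with 4.92.

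Midbrains of C57Bl/6 mouse embryos were dissected, and 3 libraries were made for each of 3 genotypes, *Nkx2.9*LacZ/LacZ (libraries 1 to 3), *Nkx2.9*LacZ/+ (libraries 4 to 6) and *Nkx2.9*+/+ (libraries 7 to 9), each from a pool of 2 midbrains. In the LacZ allele a LacZ sequence replaces exon 1 of the gene, and the heterozygote carries 1 such copy. Libraries are named by their column, since the columns carry a genotype and no replicate number, and the labels do not say whether libraries of a genotype share a litter, so the p-values measure the spread between these libraries only. The methods name the miRNeasy kit and a depletion of ribosomal RNA, while the labels name trizol and a protocol for mRNA; the title of the series names cortex where the labels and the article name midbrain.

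Reads on genes ranged from 1692963 (library 7) to 5942192 per library, and library 4 had 2584074. The normalized count is the read count divided by 1 size factor per library, so that 1 read was worth 0.702 to 2.59 in it. *Nkx2-9* itself had 4, 6 and 3 reads in the libraries labelled LacZ/LacZ, 0, 7 and 4 in those labelled LacZ/+ and 0, 2 and 2 in those labelled +/+, which is not lower in the mutant and too few to check the labels, and reads of exons that the allele keeps would not check them. All directions below rest on the genotype named in the columns, and *Nkx2-9* could not check it. All 8 genes of a midbrain list were over the minimum, with a summed normalized count of 1090 to 1776. Markers of other cells that the dissection could hold summed to 1499 to 2273 for red blood cells, 222 to 368 for choroid plexus and 607 to 791 for the serotonergic hindbrain, and their part in the results was not tested; fewer cells of a type and less RNA per cell cannot be told apart in such tissue. In LacZ/LacZ against +/+ limma called 0 of 8, 1 of 4 and 2 of 5 of their measured genes. Called here means an unadjusted p under 0.05. All 3 were lower (*Kl*, *Tph2* and *Slc6a4*), and 3 of 8 midbrain genes, *En1*, *Pax7* and *Pitx3*, were called lower too. Of all genes 1.22% were called lower, and none passed an adjusted p of 0.05 in limma.

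The RNAs described here act without being translated. The spliceosomal snRNAs U1, U2, U4, U5 and U6 pair with the pre-mRNA and with each other to remove introns, and U12 and U6atac do so for a minor class of introns. Box C/D snoRNAs guide the methylation of ribosomal RNA, box H/ACA snoRNAs guide the change of uridine to pseudouridine, and scaRNAs do both on snRNAs in the Cajal body. 7SK holds the elongation kinase P-TEFb inactive, 7SL is the scaffold of the signal recognition particle, and the RNA of RNase P and RNase MRP cuts precursors of tRNA and rRNA. Most snoRNAs of mammals are cut out of introns of host genes, while snRNAs and 7S RNAs have genes of their own, often in many copies.

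Sequences of some of the members that the results turn on are shown first, as the DNA letters of the annotated transcripts (GENCODE, GRCm38). U1 is shown because it held most of the snRNA reads. Capitals in *Gm22317* (chr12:54738459-54738622, minus strand) mark ACTTACCTG, which pairs with the 5′ splice site and occurred in 24 of 24 U1 members and 1.87% of 2946 annotated genes of these classes, and AATTTGTGG, the binding site of Sm proteins, which occurred in 22 of 24 and in 2.24%. *Gm22513* (chr12:54696782-54696945, plus strand) differs from it by the substitution T60C, counted from the 5′ end, and the capital marks it.
Gm22317: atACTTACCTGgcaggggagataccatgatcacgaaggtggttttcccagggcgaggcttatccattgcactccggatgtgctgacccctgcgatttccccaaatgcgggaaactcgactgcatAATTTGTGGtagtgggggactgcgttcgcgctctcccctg
Gm22513: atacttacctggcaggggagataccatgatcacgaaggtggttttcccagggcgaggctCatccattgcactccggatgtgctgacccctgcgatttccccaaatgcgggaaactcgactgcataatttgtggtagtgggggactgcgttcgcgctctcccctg

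The most abundant single gene was *Rn7sk*, of which the 5′ end is shown out of 331 bases (gene at chr9:78175303-78175633, minus strand). Capitals mark GATC, which occurred 3 times in this stretch, in the hairpin that HEXIM proteins are known to bind. GATC occurred in 22.4% of the genes of these classes.
Rn7sk: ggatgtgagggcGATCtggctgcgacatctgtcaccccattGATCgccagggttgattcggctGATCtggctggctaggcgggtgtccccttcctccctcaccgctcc

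The snoRNAs shown are *Snord118* (U8, which has a gene of its own and acts on the large ribosomal subunit), the highest snoRNA with each kind of box, *Gm26397* (H/ACA) and *Gm25835* (C/D), and *Gm23442* and *Snora78*, whose values are given further on. Capitals mark TGATGA (C box) and the last CTGA (D box) in *Snord118* (chr11:69073427-69073561, plus strand) and *Gm25835* (chr11:69668852-69668995, minus strand), and the last ACA in *Gm26397* (chr8:126944847-126944980, minus strand), *Gm23442* (chr17:35162563-35162696, minus strand) and *Snora78* (chr17:24719676-24719803, minus strand).
Snord118: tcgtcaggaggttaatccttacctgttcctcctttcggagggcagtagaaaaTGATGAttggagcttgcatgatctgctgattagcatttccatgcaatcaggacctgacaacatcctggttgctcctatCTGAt
Gm25835: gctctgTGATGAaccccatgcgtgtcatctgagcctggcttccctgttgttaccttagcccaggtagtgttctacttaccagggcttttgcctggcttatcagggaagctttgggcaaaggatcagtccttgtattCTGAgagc
Gm26397: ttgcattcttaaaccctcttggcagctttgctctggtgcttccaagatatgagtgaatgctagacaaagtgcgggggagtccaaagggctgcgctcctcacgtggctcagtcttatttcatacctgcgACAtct
Gm23442: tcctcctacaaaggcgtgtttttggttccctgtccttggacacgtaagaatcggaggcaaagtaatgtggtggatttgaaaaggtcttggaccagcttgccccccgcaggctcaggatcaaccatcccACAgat
Snora78: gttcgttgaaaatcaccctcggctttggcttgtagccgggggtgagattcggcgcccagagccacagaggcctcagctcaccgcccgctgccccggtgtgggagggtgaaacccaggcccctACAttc

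The members took 2.49% to 6% of the normalized counts of a library, and a few genes made up most of this. Over the 9 libraries 36.2% of the members' counts lay on snRNAs, 29.4% on 7SK, 16.1% on RNase P and MRP RNA, 13% on 7SL, 3.13% on snoRNAs and 2.2% on scaRNAs. The summed count moved from library to library far more than from genotype to genotype. It was 211732, 139949 and 105064 in the LacZ/LacZ libraries, 251262, 128515 and 143027 in the LacZ/+ libraries, and 262809, 129913 and 212842 in the +/+ libraries. Libraries 1, 4, 7 and 9 were thus the highest, and every genotype had both high and low libraries.

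**Figure D1:**
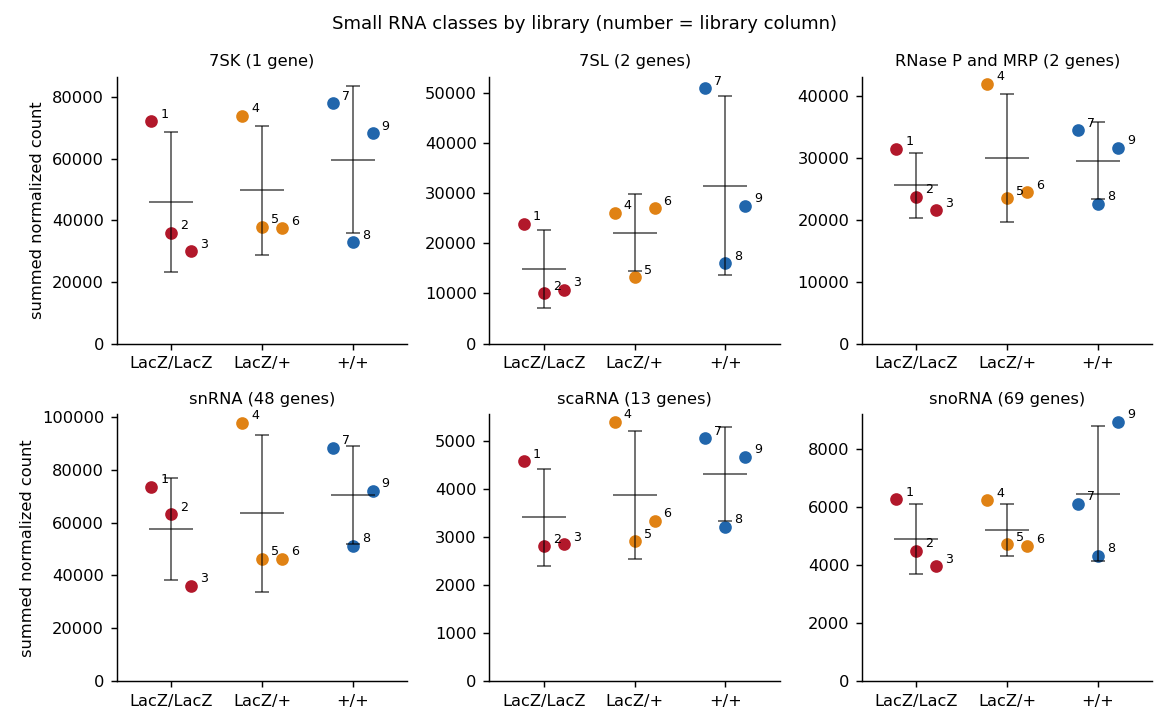
Summed normalized count of each class (y axis, from 0) in each library, grouped by genotype, with the mean and SD of 3 libraries in black and the library column beside each point. In 5 of 6 classes libraries 1, 4, 7 and 9 are the 4 highest, and in each class the genotypes overlap.

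*Rn7sk* showed this in a single gene without a near-identical copy among the genes of these classes, the only ones searched. Its normalized count was 72010, 35828 and 29915 in LacZ/LacZ, 73903, 37884 and 37317 in LacZ/+, and 77953, 32778 and 68118 in +/+. The genotypes overlapped fully, and the means of 45918 ± 22789, 49701 ± 20961 and 59616 ± 23757 (SD, n = 3 each) differed by less than the spread within a genotype. *Rpph1*, the RNA of RNase P, moved less, from 20466 in library 3 to 39065 in library 4. *Rmrp*, the RNA of RNase MRP, lay between 1027 in library 3 and 3101 in library 7. In limma none of these 3 genes was called in any comparison.

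The 4 highest libraries were 1, 4, 7 and 9 in 5 of 6 classes, the exception being 7SL, where library 6 stood in place of library 1. A list of 6 RNAs known to lack a poly(A) tail, mostly replication-dependent histone genes, was also read, and the same 4 libraries were the highest for the 5 of them in the table. Their sum was 1271, 856 and 732 in LacZ/LacZ, 1281, 798 and 882 in LacZ/+ and 1156, 925 and 1150 in +/+. These 4 libraries were not alike in depth, since libraries 4 and 7 were the shallowest while libraries 1 and 9 held 5627092 and 5808057 reads. Whether RNA handling, depletion or fragment size set these levels was not tested.

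**Figure D2:**
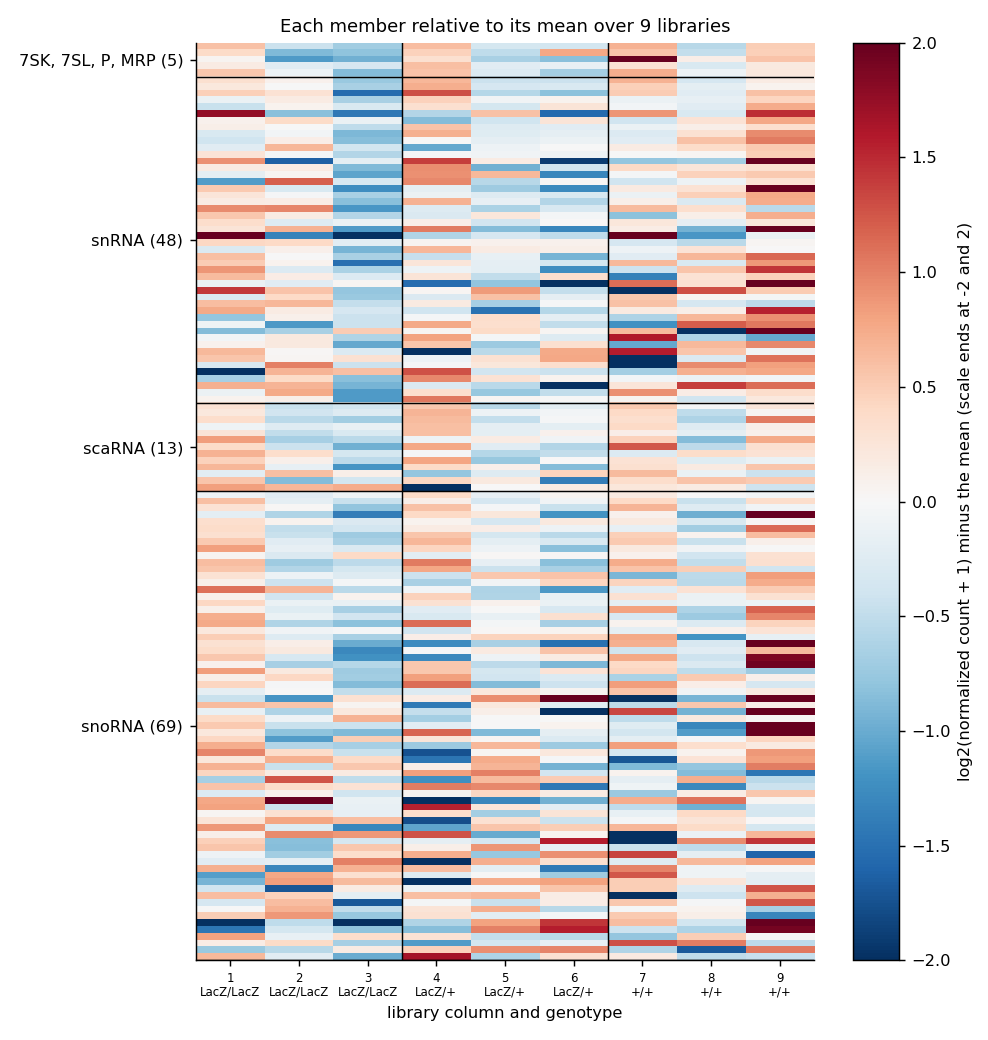
Each row is a member and each column a library with its genotype; the colour is log2(normalized count + 1) minus the member's mean over the 9 libraries. Library 9 is the highest for 46 of 135 members and holds single dark red rows, and library 3 is the lowest for 19 of 48 snRNAs.

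The spread of the members exceeded that of other genes of like level. Among genes with a mean of at least 1000 the median coefficient of variation over the 9 libraries was 35.3% for 11 members and 9.28% for 685 other genes. Between 100 and 1000 it was 36.7% for 35 members and 12.6% for 6769 other genes, between 20 and 100 it was 39.2% and 22.6%, and between 5 and 20 it was 55% and 45.4%. The lowest values were 13.5% for *Gm24727*, 13.8% for *Gm26397* and 16.7% for *Snord8*, all snoRNAs, and the highest were 185% for *Gm23442* and 183% for *Snord118*.

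Library 9 was the highest of the 9 libraries for 46 of 135 members (34.1%), against 8.01% of the 16993 genes with a mean of at least 5. This held for 20 of 48 snRNAs, 25 of 69 snoRNAs and 1 of 13 scaRNAs, for which libraries 4 and 1 were the highest for 5 and 4. Library 3 was the lowest for 38 members (28.1%, against 9.22% of all genes). Libraries 4 and 7, which had the fewest reads, were the highest for 22.1% and 17% of all genes and for 20.7% and 12.6% of members.

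U1 alone gave 35.2% of the members' counts. Its 24 members ranged in mean from 31773 (*Gm22317*) and 20278 (*Gm22513*) through 4792 (*Gm25679*) to 5.79. The first 3 of these lie close together on chromosome 12, and *Gm22317* took 48.7% to 56.2% of the U1 count in every library. *Gm22317* measured 37713, 31808 and 17974 in LacZ/LacZ, 47577, 22346 and 22415 in LacZ/+, and 48699, 23885 and 33544 in +/+, so the genotypes overlapped. The gene that carries the usual name of mouse U1a, *Rnu1a1* (chr11:87422867-87423030), had a mean of only 221 although its 164 bases were identical to those of *Gm22317*. It ranged from 95.3 to 204 in LacZ/LacZ, from 80 to 373 in LacZ/+ and from 194 to 285 in +/+. *Gm22317*, *Gm22513* and *Gm25679*, like other genes named below by a Gm symbol outside the rule for named genes, were picked once their values were known.

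Copies of the same sequence thus differed widely in count. In all, 67 members had at least 1 near-identical copy among the genes of these classes (at least 95% identity over at least 90% of the shorter sequence), and 26 had a copy identical over the whole shorter sequence. Among the 7 U1 members with the sequence of *Gm22317* the mean ran from 31773 to 8.78. U6 was the extreme: its 5 members had up to 207 near-identical copies each, and the summed count of these 5 was only 30.7 to 67.7 per library. A read that lies wholly within identical bases cannot be placed on 1 copy, and how the authors counted such reads is not stated, so the level of a single copy is uncertain and the sum over a family is the safer measure. Each family sum given here covers members only, so counts on copies under the minimum are left out of it.

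**Figure D3:**
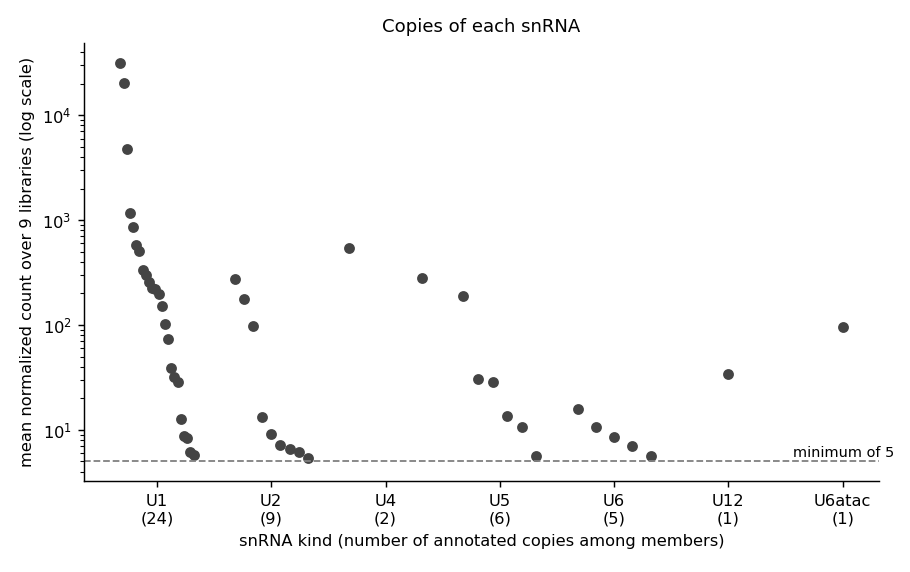
Mean normalized count over the 9 libraries (y axis, log scale) of each annotated copy among the members, by snRNA kind, with the number of copies under each name and the minimum of 5 as a dashed line. U1 copies run from 31773 to 5.79, while the highest U6 copy is at 15.9.

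The other spliceosomal snRNAs were far lower than U1. The sum per library was 374 to 892 for 9 U2 members, 416 to 1273 for 2 U4 members, 81.6 to 1062 for 6 U5 members, 22.5 to 44.4 for U12 (*Rnu12*) and 71.7 to 120 for U6atac (*Gm25541*). The highest U2 copy was *Gm23971* with a mean of 275, while *Rnu2-10*, identical to it over 191 bases, had 7.15. U4 was split between *Gm24265* (mean 544) and *Gm24407* (283), which lie side by side on chromosome 5 and differ by G88A and C99A.

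By annotated length, 0 of 193 snRNA genes shorter than 100 bases reached the minimum, although 62 of them had a read, as against 14 of 975 (1.44%) from 100 to under 150 bases and 34 of 217 (15.7%) of 150 bases or more. Among snoRNA genes 17 of 458 under 100 bases (3.71%), 46 of 995 from 100 to under 150 (4.62%) and 6 of 54 of 150 bases or more (11.1%) were members. The members ranged from 64 to 414 bases. Reads were 100-bp pairs, and selection by size as the libraries were made can change the level of short RNAs, also per kilobase. Length also goes with the kind of snRNA and its copies. The U6 members have 107 bases and up to 207 near-identical copies each, and the U1 members have 164 to 166 bases. The part of size selection, of kind and of copies here was not tested. The genes annotated for U3 (*Rnu3a* and *Rnu3b1* to *Rnu3b4*), *Rnu11* and *Rnu7* had 0 reads in all libraries. For U3 each of 5 loci is listed under 2 identifiers at nearly the same bases, 10 entries in all, so that a read there would lie on both.

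The snoRNA members fell into both families. By letters, 19 of 69 held TGATGA within the first 20 bases and CTGA within the last 20 (C and D boxes; 20.5% of all 1507 snoRNA genes), and 40 others held ACA within the last 8 bases (46% of all), leaving 10 with neither; *Snord118* is among these 10, because its C box lies inside. *Snord13*, whose symbol names a C/D snoRNA, is among the 40, so the letters do not settle the family of each member. Members with the C and D box letters were short, with a median of 79 bases, and those with the ACA letters had a median of 134. The highest snoRNA was *Gm26397*, an H/ACA snoRNA in an intron of *Tomm20*, with 951 ± 53.3 in LacZ/LacZ, 1130 ± 217 in LacZ/+ and 1082 ± 95 in +/+ (SD, n = 3 each). It was followed by *Gm25835* in *Eif4a1* with a mean of 556 and *Snord17* in *Snx5* with 509.

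Of the 69 snoRNA members, 62 lay inside a gene on the same strand, 59 in introns and 3 in exons, and for 49 members this host codes for a protein. Of the 13 scaRNA members, 10 had a host on the same strand. Per kilobase, 48 of the 62 snoRNAs and 7 of the 10 scaRNAs had a higher normalized count than the exons of their host, with a median ratio of 2.62 and 10. *Gm26397* had 7867 per kilobase against 166 for the exons of *Tomm20*, a part of the mitochondrial import channel, and *Gm25835* had 3861 against 386 for *Eif4a1*, a translation initiation factor. *Snord37* was the reverse, with 84 against 2282 for *Eef2*, an elongation factor of the ribosome. Reads of unspliced host RNA cannot be told apart from reads of the snoRNA, and the strand setting of the counting is not stated, which also touches 5 snoRNA and 8 snRNA members that lie inside a gene on the opposite strand.

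Clusters of imprinted brain snoRNAs were seen at low level. *Snhg14*, a long host transcript made in neurons from the paternal allele, holds 208 annotated genes of these classes, of which 152 had a read and 5 were members, with means of 5.64 to 12.7. Their sum was 29.4 to 51.2 per library, and *Snhg14* itself had a mean of 1557. *Rian*, made from the maternal allele, holds 13 such genes, of which 4 had a read and 3 were members, with a sum of 17.9 to 59.3. Libraries 1, 4, 7 and 9 were not the highest for either sum. For *Rian* they had 57.2, 17.9, 33.6 and 44.2, where the other libraries had 44.9 to 59.3.

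The scaRNAs were led by *Scarna2*, which has a gene of its own. It measured 2044, 1237 and 1301 in LacZ/LacZ, 2448, 1146 and 1448 in LacZ/+, and 2426, 1650 and 1997 in +/+, again with libraries 1, 4, 7 and 9 highest. *Gm22442* in *Chd3* followed with a mean of 448, and the other 11 had means of 5.06 (*Gm22728*) to 392 (*Gm25395*). None of the 13 was called against +/+ in either mutant genotype.

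Differences between genotypes were tested with limma on log2(normalized count + 1) across 16993 genes, two-sided, with Benjamini-Hochberg adjustment. No gene passed an adjusted p of 0.05 in limma or edgeR, so members are called here at an unadjusted p under 0.05, and their adjusted p in limma was 1.000 against +/+ and 0.999 between the mutants. The exact permutation test of 3 libraries against 3 cannot give a p under 0.1. In LacZ/LacZ against +/+, 10 of 135 members (7.41%) were called lower, where 1.22% of all genes were, and 0 were called higher, where 1.38% of all genes were. With eBayes without a trend 4 members (2.96%) were called, against 3.24% of all genes in either direction, so that the members' share was then near the background. Libraries of the 2 genotypes kept apart without overlap for 8 members (5.93%), fewer than the 9.52% of all genes. Of the 135 members, 8 had a mean under 5 over the 6 mutant libraries and so reached the minimum only through +/+, and 2 of these 8, *Gm23287* and *Gm25989*, were among the 10. The median log2 fold change was -0.26 over the members and 0.01 over all genes tested.

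This count changed with single libraries. Without library 9, 6 members were called, 5 higher and 1 lower, and only 1 gene was called both times, *Rn7s1*. Of all genes 2.73% were called higher and 1.05% lower in that fit, against 3.7% and 0.741% of members. Without library 3 it was 5 members, 3 higher and 2 lower (3.7%, against 1.71% of all genes), and without library 2 it was 6, all lower (4.44%, against 1.67%). Without library 1, 7 or 8 it was 23 (17%, against 2.67%), 16 (11.9%, against 1.89%) and 24 (17.8%, against 4.87%).

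**Figure D4:**
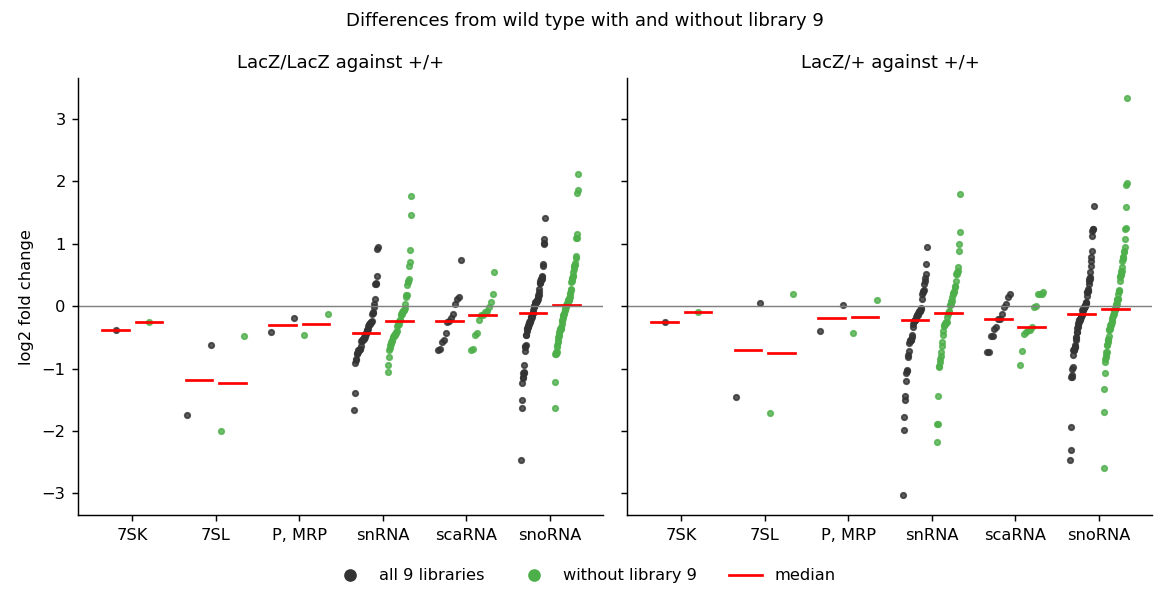
Log2 fold change of each member (points) from +/+ in LacZ/LacZ (left) and LacZ/+ (right), by class, with all libraries in black and without library 9 in green; the red line is the median. Without library 9 the median over all members moves from -0.26 to -0.13 on the left and from -0.20 to -0.07 on the right.

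*Rn7s1* was called lower in both mutant genotypes. Its normalized count was 5526, 2438 and 2746 in LacZ/LacZ, 6688, 3415 and 2980 in LacZ/+, and 30203, 5875 and 7966 in +/+. The LacZ/LacZ values lay below all +/+ values, the LacZ/+ values overlapped those of +/+, and library 7 stood 3.79 times above the next library. The log2 fold change was -1.75 ± 0.46 (SE; limma p = 0.00167, exact permutation p = 0.1) in LacZ/LacZ and -1.46 ± 0.46 (limma p = 0.00626, exact permutation p = 0.2) in LacZ/+. Without library 7 these were -1.04 ± 0.33 and -0.74 ± 0.33, and both were still called. The copy *Rn7s2*, identical over its 300 bases, measured 18364, 7625 and 8040 in LacZ/LacZ, 19411, 9845 and 24012 in LacZ/+ and 20815, 10123 and 19533 in +/+, with a log2 fold change of -0.62 (95% interval -1.37 to 0.12) and 0.05 (-0.69 to 0.80). *Rn7s1* took between 11% (library 6) and 59.2% (library 7) of the 7SL count. The sum of both copies was 10063 to 23891, 13260 to 26992 and 15998 to 51018 in the 3 genotypes, which overlap. A difference in 7SL and a difference in how reads were placed on 2 identical copies cannot be told apart.

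**Figure D5:**
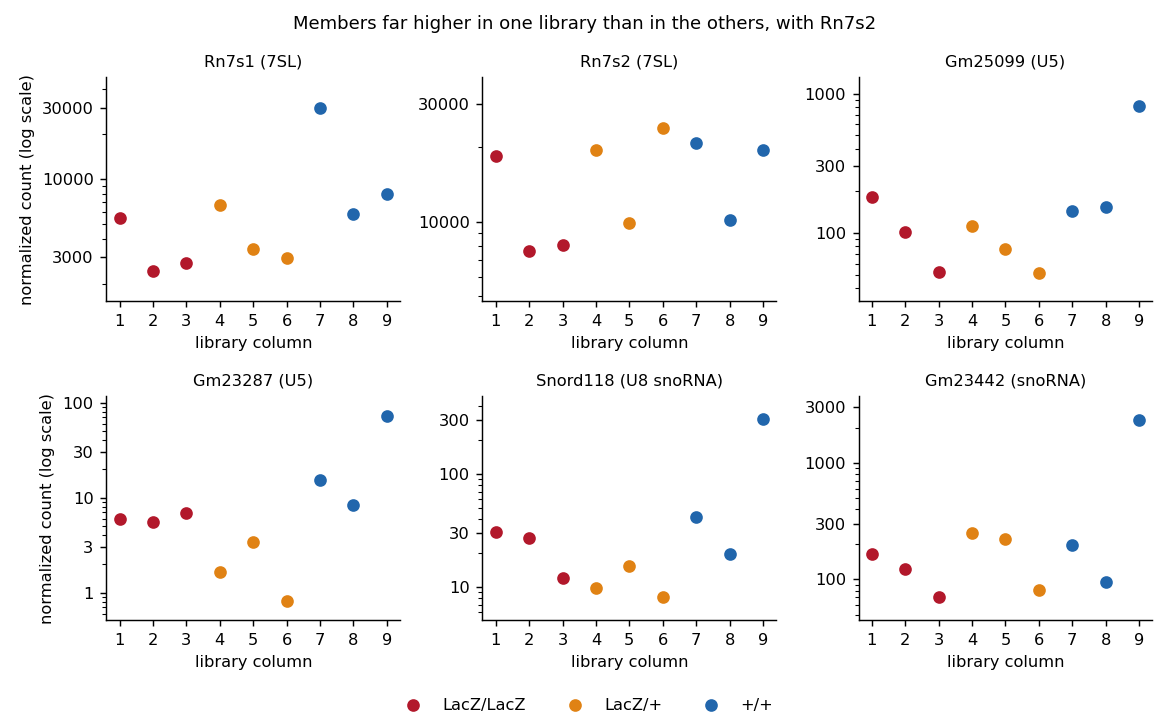
Normalized count (y axis, log scale, its own range in each panel) of 6 members in each library column, coloured by genotype. *Rn7s1* is highest in library 7 and *Rn7s2* is not, while *Gm25099*, *Gm23287*, *Snord118* and *Gm23442* are highest in library 9.

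In LacZ/+ against +/+, 14 of 135 members (10.4%) were called lower, where 1.48% of all genes were, and 1 was called higher, *Gm23297*, where 1.31% of all genes were. The values did not overlap for 11 members (8.15%, against 6.91% of all genes). All 6 U5 members were among the 14, but *Gm22265* and *Gm23287* reached the minimum only through +/+, with means of 3.73 and 4.04 over the 6 mutant libraries, so that the minimum favoured a lower value in LacZ/+ for these and the count of 6 rests partly on it. The others were *Rn7s1*, the U4 copy *Gm24407*, the U2 copy *Gm25939* and the snoRNAs *Snord118*, *Snora2b*, *Gm23105*, *Gm26493* and *Gm24233*. Without library 9 there were 11 called members, 5 higher and 6 lower, and 5 were called both times: *Rn7s1*, *Snord118*, *Snora2b* and the U5 copies *Gm25099* and *Gm23287*. Of all genes 2.35% were called higher and 1.19% lower in that fit, against 3.7% and 4.44% of members. Without library 4 the count was 27 (20%, against 5.49% of all genes).

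U5, which holds the exons in place during splicing, had a summed count in LacZ/+ below that of all +/+ libraries. The sum of its 6 members was 299, 171 and 100 in LacZ/LacZ, 165, 131 and 81.6 in LacZ/+, and 215, 266 and 1062 in +/+. LacZ/LacZ overlapped both. U12 did not overlap between LacZ/+ and +/+ either, in the other direction (34.2 to 35.1 against 22.5 to 33.9), and was not called. *Gm25099*, which gave 52.1% to 77.3% of U5, measured 181, 101 and 52.4 in LacZ/LacZ, 111, 76 and 51.4 in LacZ/+, and 142, 154 and 821 in +/+. Its log2 fold change in LacZ/+ was -1.78 ± 0.54 (SE; limma p = 0.00443, exact permutation p = 0.1), and -0.96 ± 0.40 without library 9, still called. In LacZ/LacZ it was -1.40 ± 0.54 (limma p = 0.0189, exact permutation p = 0.3), and -0.58 ± 0.40 without library 9, where it was not called.

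*Gm23287*, another U5 copy, had 8, 6 and 8 reads in LacZ/LacZ, 1, 4 and 1 in LacZ/+ and 6, 12 and 99 in +/+. All LacZ/+ values lay below all others, and library 9 stood 4.7 times above the next. Its log2 fold change in LacZ/+ was -3.03 ± 0.70 (SE; limma p = 0.000517, exact permutation p = 0.1), and -2.17 ± 0.72 without library 9, still called. In DESeq2 on the recovered reads its log2 fold change was -4.06 ± 0.86 (SE; adjusted p = 0.0407), and it was the 1 gene past an adjusted p of 0.05 in the fits run with limma, edgeR and DESeq2. Because it reached the minimum only through +/+, where it was high, this p is not free of that choice. *Rnu5g*, the named U5 gene, had 18.0 ± 7.13 in LacZ/+ and 40.8 ± 25.1 in +/+ (SD, n = 3 each), and its call was lost without library 9. *Gm25313*, *Gm23143* and *Gm22265* lost theirs too, with log2 fold changes of -0.74 ± 0.43, -0.97 ± 0.60 and -1.89 ± 0.92 (SE). The 6 copies share most of their bases, so they are not 6 independent results, and *Gm22265* and *Gm23143* rest on 0 to 38 reads a library.

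*Snord118* (U8) was also lower in LacZ/+. It measured 30.9, 27.4 and 12 in LacZ/LacZ, 9.78, 15.4 and 8.16 in LacZ/+, and 41.4, 19.6 and 304 in +/+. LacZ/+ and +/+ did not overlap. The log2 fold change in LacZ/+ was -2.46 ± 0.69 (SE; limma p = 0.00275, exact permutation p = 0.1), and -1.33 ± 0.49 without library 9, still called. In LacZ/LacZ the call was lost without library 9, with the log2 fold change moving from -1.50 to -0.38. *Snora2b*, an H/ACA snoRNA inside an exon of *Kansl2*, had 14, 41 and 6 reads in LacZ/LacZ, 0, 2 and 3 in LacZ/+ and 4, 19 and 8 in +/+, and its log2 fold change in LacZ/+ was -2.30 ± 0.73 (SE; limma p = 0.00635, exact permutation p = 0.1). Per kilobase *Snora2b* had a mean of 70.5, against 76.3 for the exons of *Kansl2*. Its few reads therefore cannot be told apart from reads of the host exon. *Kansl2* itself, with 291 ± 57.6 in LacZ/+ and 294 ± 25.5 in +/+ (SD, n = 3 each), was not called.

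Other members called in LacZ/LacZ against +/+ were U1 copies *Gm25890* (224 ± 77.6 against 410 ± 168) and *Rnu1b6* (240 ± 67.2 against 416 ± 174), the U2 copy *Gm25939* (158 ± 46.7 against 226 ± 66.2) and the snoRNAs *Snora78* (189 ± 74.3 against 289 ± 53.8), *Gm22748* (24.3 ± 7.66 against 63.2 ± 52.4; SD, n = 3 each) and *Gm25989*. For the last, LacZ/LacZ had 0, 2 and 0 reads and +/+ had 2, 3 and 32, and its mean over the 6 mutant libraries was 3.2, so that it was a member only through +/+. All 6 lost the call without library 9, with log2 fold changes of -0.55, -0.44, -0.32, -0.55, -0.44 and -1.63 in the same order. *Rnu1a1*, *Snora78*, *Gm22748* and *Gm23287* are the 4 members in a list that the study drew from these same libraries, so it is not independent evidence and no direction is taken from it. *Rnu1a1* was not called here (log2 fold change -0.71, 95% interval -1.61 to 0.18).

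Between the mutant genotypes, 4 members (2.96%) were called higher in LacZ/LacZ than in LacZ/+ and 2 (1.48%) lower, where 1.49% and 1.15% of all genes were, and values did not overlap for 6 (4.44%, against 8.71%). *Snora2b*, *Gm26493*, *Gm22767* and *Gm22478* were higher and *Gm25989* and *Gm24830*, a U1 copy, were lower. *Snora2b* had the smallest p (limma p = 0.00187, exact permutation p = 0.1, log2 fold change 2.73 ± 0.73), with the reads given above. Without library 1 the count was 3 (2.22%, against 2.21% of all genes), and without library 5 it was 12 (8.89%, against 4.35%). The 3 comparisons share libraries 2 by 2, so calls of 1 gene in 2 of them are not separate evidence.

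A few members stood far higher in a single library than in all others. Of 16993 genes, 6 were at least 3 times higher in library 9 than in any other library (0.0353%), and 5 of these were members: *Gm23442*, *Snord118*, *Gm23287*, *Gm25099* and *Snora47*. The other was *Rny3*, a Y RNA, a short RNA made by RNA polymerase III, with 126259 in library 9 and at most 30989 elsewhere; *Rny1* had 43584 there and at most 19902 elsewhere. *Gm23442*, an H/ACA snoRNA in an intron of *Prrc2a*, measured 164, 123 and 71.3 in LacZ/LacZ, 248, 220 and 81.6 in LacZ/+ and 199, 94.7 and 2314 in +/+. *Prrc2a* had 1092 in library 9 and a mean of 1040 over all, so its exons did not stand apart. *Snora47*, in *Zbed3*, had 80.2 in library 9 and 4.21 to 24.4 elsewhere. In library 7, 9 genes reached this ratio, of which 1 was a member, *Rn7s1*, in library 2 there were 5, none of them members, and in libraries 1, 3, 4, 5, 6 and 8 there were 0.

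Host genes were tested in the same fit. Of 63 hosts with a mean of at least 5, 0 were called in limma (unadjusted p under 0.05) in LacZ/LacZ against +/+, 2 in LacZ/+ against +/+ (*Gsr* and *Epb41l4aos*, both higher) and 0 between the mutants, where 2.6%, 2.78% and 2.64% of all genes were called in either direction. *Odc1*, the rate-limiting enzyme of polyamine synthesis and host of *Gm22748*, had 442 ± 37.1 in LacZ/LacZ and 426 ± 45.4 in +/+. *Snhg9*, host of *Snora78*, had 8.67 ± 3.74 and 2.63 ± 2.29 (SD, n = 3 each), the other way from its snoRNA, and was not called. *Snora78* also lies inside *Rps2*, a ribosomal protein gene on the opposite strand.

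Genes for proteins that bind or make these RNAs, and snoRNA host genes without a protein, were read from 9 lists with 165 genes in all, of which 160 were tested. Called were 6 genes (3 higher, 3 lower) in LacZ/LacZ against +/+, 1 higher in LacZ/+ against +/+ and 9 (4 higher, 5 lower) between the mutants, or 3.75%, 0.625% and 5.62% where 2.6%, 2.78% and 2.64% of all genes were called, with medians of 0.01, -0.02 and 0.01 on the log2 scale. In LacZ/LacZ against +/+, 1 of 44 snRNP proteins was called, *Lsm4* (64.5 ± 3.68 against 90 ± 16.6), 0 of 11 box C/D proteins, 1 of 9 box H/ACA proteins, *Gar1* (26.7 ± 2.89 against 47.7 ± 9.75), 0 of 7 for 7SK and P-TEFb and 0 of 10 of the signal recognition particle (SD, n = 3 each). Of 11 RNase P and MRP proteins *Rpp14* was higher and *Rpp25* lower, of 33 genes for snRNA transcription, processing and assembly *Ints12* and *Ints13*, subunits of the Integrator complex that cuts the 3′ end of snRNAs, were higher (124 ± 8.95 against 93.9 ± 6.64 and 168 ± 14.7 against 116 ± 40.5; SD, n = 3 each), and 0 of 20 RNA polymerase III genes and 0 of 15 host genes without protein were called. In LacZ/+ against +/+ the 1 called gene was *Lsm3*, which binds U6, with 60.5 ± 10.4 against 39.9 ± 8.33 (SD, n = 3 each).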

How the data were processed

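RNA was sequenced in 9 libraries of 2 pooled midbrains. The authors isolated RNA, depleted ribosomal RNA, sequenced 100-bp paired ends, aligned reads with Hisat2 to GRCm38/mm10, counted them with featureCounts and divided the counts by DESeq2 size factors. The deposited signal is this normalized count per gene. Versions, strand setting and handling of reads with several positions are not given in the sources used here. The 3 deposited tables of DESeq2 comparisons (fold changes and p-values, named wt vs ko, wt vs het and het vs ko) were not used, and neither they nor the labels state which genotype a positive sign stands for.

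Identifiers were matched to GENCODE (GRCm38): 51719 matched and 193 did not. Whole reads were recovered for 100% of 210686 values above 0, within 0.01 of a read. limma 3.58.1 in R 4.3.3 (lmFit, eBayes with trend, no covariate) was fitted to log2(normalized count + 1) of all 9 libraries for genes with a mean of at least 5. On simulated data for 16993 genes, of which 200 were shifted by 1 on the log2 scale, it called 192 of the 200 in the right direction and 4.85% of the others. The shifted genes all had a mean of at least 20, and the members varied more than other genes of like level. The 192 of 200 therefore does not measure how often such a shift would be found in members. Copies were found with blastn 2.17.0. Named genes are the 7S, RNase P and MRP RNAs, snRNAs with an Rnu symbol, the highest copy of other snRNA kinds, the 5 highest snoRNAs, the scaRNAs, members in the study's list, the 5 called members of smallest p in each direction, their hosts and the genes beside the minimum. The members, gene lists and tests were chosen with earlier results of these data known. A p-value under 0.05 is unadjusted unless said otherwise. Alternatives were other pseudocounts, minima and scalings, fewer libraries, no trend, log2 total reads as a covariate, edgeR 4.0.16 and DESeq2 1.42.0 on recovered reads, and each library left out. Some sequences are not reported here.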

Additional observations from a re-analysis of the deposited data

How the results depend on the processing

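No paired analysis was possible because the columns carry no replicate number. The number of members called in LacZ/LacZ against +/+ (10) became 16 with only the 6 libraries compared (11.9%, against 3.78% of all genes), 4 with eBayes without a trend (2.96%, against 3.24%) and 19 with edgeR (14.1%, against 2.48%), and 5 to 24 with 1 library left out. In LacZ/+ against +/+ (15) it became 7 with a minimum of 20, where fewer genes were tested (9.21%, against 1.94%), and 11 to 27 with 1 library left out. Between the mutants (6) it became 3 with a minimum of 20 (3.95%, against 2.31%) and 3 to 12 with 1 library left out. Over all genes the calls (441, 473 and 449) became 1135, 1137 and 1132 with no minimum and 263, 242 and 288 with a minimum of 20. In LacZ/+ against +/+ they became 280 with the 6 libraries, 264 with DESeq2 and 790 with log2 total reads as a covariate. With 1 library left out they were 283 to 827, 445 to 933 and 293 to 740. A minimum of 20 left 76 members, and identity over the whole sequence left 26 of 67 members with a copy.

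For 23 called differences of named members the direction stayed the same in all settings run. The call was kept in 219 and lost in 26 values with another setting, and was kept in 87 and lost in 51 with 1 library left out. The calls of *Rn7s1* and *Snord118* in LacZ/+, of *Gm25099* and *Gm23287* in LacZ/+, of *Snora2b* in both comparisons with LacZ/+ and of *Rn7s1* in LacZ/LacZ held in all settings that tested them. *Gm23287* reached the minimum only through +/+, where it was high, so its call is not free of that choice. The cause of the other changes was not tested. With 3 libraries a genotype, the spread between libraries limits what can be seen.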
